A study of Drosophila melanogaster with 15 samples.

Results

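Larval tissue of the DSas-4 mutant was compared directly with that of the DSas-6 mutant, a pair of Drosophila melanogaster strains that the submitters describe as lacking centrosomes. The comparison took 6 of the 15 samples of the series, 3 arrays per mutant, and covered the genes that had a probe set assigned to them alone, 11982 in all. Of these, 6916 reached a log2 value of 4 on at least 3 of the 6 arrays and were tested. Brains and imaginal discs had been dissected from wandering larvae (instar 3) raised at 25 °C, 10 larvae per pooled sample, and samples of one genotype are labelled as biological replicates. The groups used here were the DSas-4 mutant and the DSas-6 mutant, and, for reference levels, the wild-type strains w67, whose genotype is labelled as white wild type, and OregonR. A strain overexpressing Sak, labelled as having too many centrosomes, entered only the estimate of the spread. The labels give no allele, sex or chromosome background for the mutants, so whether a stretch of chromosome around each mutation differs between the strains cannot be read from them.

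Centrioles are the microtubule-based cylinders that organise the centrosome and, at the cell surface, template cilia. Sas-6 builds the cartwheel that gives the new centriole its symmetry, and Sas-4 recruits the microtubule wall and links the centriole to the surrounding pericentriolar material. Sak, the fly Plk4 kinase, starts the assembly. In flies, larval brain and disc cells can divide without centrioles, since spindles also form around chromosomes.

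Levels are given on the log2 scale, on which 1 unit is a 2-fold difference, with every array centred at the same median, and triplets follow the order of replicates 1 to 3. Arrays of the same mutant correlated at r of 0.989 or more over the tested genes, and the lowest correlation between arrays of different mutants was 0.979. The deposited values have 1 lowest value per group, 2.174 in DSas-4 and w67 and 2.178 in DSas-6, so a separate normalization of the mutants cannot be told apart from the mutants themselves. Labelling and hybridization controls added at the bench also differed. The dap spike-in read 8.21, 8.28 and 8.13 on the DSas-4 arrays and 8.85, 8.86 and 9.01 on the DSas-6 arrays, and phe, lys and thr were higher on all DSas-6 arrays as well. The 3′ minus 5′ signal of Act5C, a sign of RNA integrity, overlapped, with 0.775 to 0.846 against 0.770 to 0.866. The part of these controls in the results below was not tested.

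The mutated genes themselves followed the labels. Sas-4 read 4.61, 4.73 and 5.03 on the DSas-4 arrays and 7.63, 7.38 and 7.82 on the DSas-6 arrays. Both wild types lay at the DSas-6 level, with means of 7.56 in w67 and 7.72 in OregonR, and the DSas-4 arrays were all lower, without overlap. The difference, DSas-4 minus DSas-6, was -2.82 ± 0.12 (SE, n = 3 per group; adjusted p = 6.02e-09), a 7.06-fold difference. Sas-6 read 7.31, 7.75 and 7.64 on the DSas-4 arrays and 3.32, 3.23 and 3.14 on the DSas-6 arrays. The wild-type means, 7.67 in w67 and 7.69 in OregonR, lay within the DSas-4 values, and the DSas-6 arrays stayed under 4. Sas-6 was at least 11.8-fold higher in DSas-4 (adjusted p = 4.79e-12), a lower bound computed against a level of 4. The adjusted p given beside such a bound, here and below, tests the measured values. Where only 1 or 2 arrays of the lower mutant were under 4, the fold rests partly on values near background. For 13 such genes it was recomputed with these values set to 4, a check chosen after seeing the data. It is given below for Cyp4g1, Lectin-galC1, DIP-alpha and srp, and the folds of the other 9 were at most 1.15 times smaller. SAK did not pass, with a difference of 0.19 ± 0.10 (adjusted p = 0.203).

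The mutants differed at many genes, mostly by small amounts. At an adjusted p of 0.05, 1482 of the 6916 tested genes passed, 21.4%, with 835 higher in DSas-4 (12.1%) and 647 higher in DSas-6 (9.36%). Those 3 shares are the background for the counts of list members below. The median size of a called difference was 0.33 and the smallest was 0.12, and 103 called genes differed by 1 unit or more, 60 of them higher in DSas-4 and 43 higher in DSas-6. The 3 arrays of one mutant did not overlap those of the other for 1441 of the 1482 called genes. Over all tested genes this held for 2595 of 6916 (37.5%). A call and a lack of overlap rest on the same values, so the latter is no separate evidence for a called gene. The split into directions depended on the scaling. Without centring, 1388 of 1732 called genes were higher in DSas-4 (80.1%), and with each array centred on the median of all its probe sets 1143 of 1541 were (74.2%), against 56.3% here. When only the 6 mutant arrays were fitted, 853 genes passed, and without DSas-4 replicate 3 or DSas-6 replicate 1 the counts were 899 and 954.

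Apart from Sas-6, the genes with the largest differences higher in DSas-4 included several that were near the lowest array value in DSas-6. Hsc70-2, a cognate member of the Hsp70 chaperone family, read 9.44, 9.32 and 9.30 on the DSas-4 arrays and 2.18, 2.22 and 2.17 on the DSas-6 arrays. All DSas-4 arrays were bright and all DSas-6 arrays dark, as were the wild types, with means of 2.21 in w67 and 2.72 in OregonR. Hsc70-2 was at least 40.9-fold higher in DSas-4 (adjusted p = 5.86e-11). GILT3, of the gamma-interferon-inducible lysosomal thiol reductase family, read 7.16, 6.41 and 7.16 on the DSas-4 arrays and 2.62, 2.70 and 2.61 on the DSas-6 arrays. These groups did not overlap, and the wild-type means, 3.64 in w67 and 3.62 in OregonR, were also under 4. The difference was at least 7.51-fold (adjusted p = 2.51e-09). CG31157 and CG31287 had the same pattern, being at least 7.86-fold and at least 6.14-fold higher in DSas-4, and CG31495 was at least 1.82-fold higher. Dred and CG7650, whose probe sets may also match other transcripts, were at least 3.82-fold and at least 5.82-fold higher. The other probe sets of CG7650, not marked as shared, had means of 6.34 and 6.35 in DSas-4 against 2.47 and 3.33 in DSas-6.

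Other genes of this group were expressed in both mutants. miple1, a homologue of the vertebrate growth factors midkine and pleiotrophin, read 11.67, 11.63 and 11.37 on the DSas-4 arrays and 8.96, 9.29 and 8.96 on the DSas-6 arrays. The DSas-4 arrays were all higher, by 5.62-fold (adjusted p = 8.47e-09), and the wild-type means were 9.36 in w67 and 9.85 in OregonR. Oat, the mitochondrial enzyme ornithine aminotransferase, read 8.39, 7.93 and 7.74 on the DSas-4 arrays and 5.40, 5.72 and 5.68 on the DSas-6 arrays. Again no arrays overlapped, the wild types, 5.78 in w67 and 5.26 in OregonR, lay near DSas-6, and the difference was 5.36-fold (adjusted p = 1.28e-05). CG14687 was 4.9-fold higher in DSas-4 and lay near DSas-6 in the wild types, at 8.02 in w67 and 7.88 in OregonR. CG18213 was 5.7-fold higher, with wild-type levels of 5.45 in w67 and 6.34 in OregonR, nearer to DSas-4. The remaining genes of the 15 largest, PPO2, PPO1 and Hml, are blood cell genes and are described below.

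**Figure D1:**
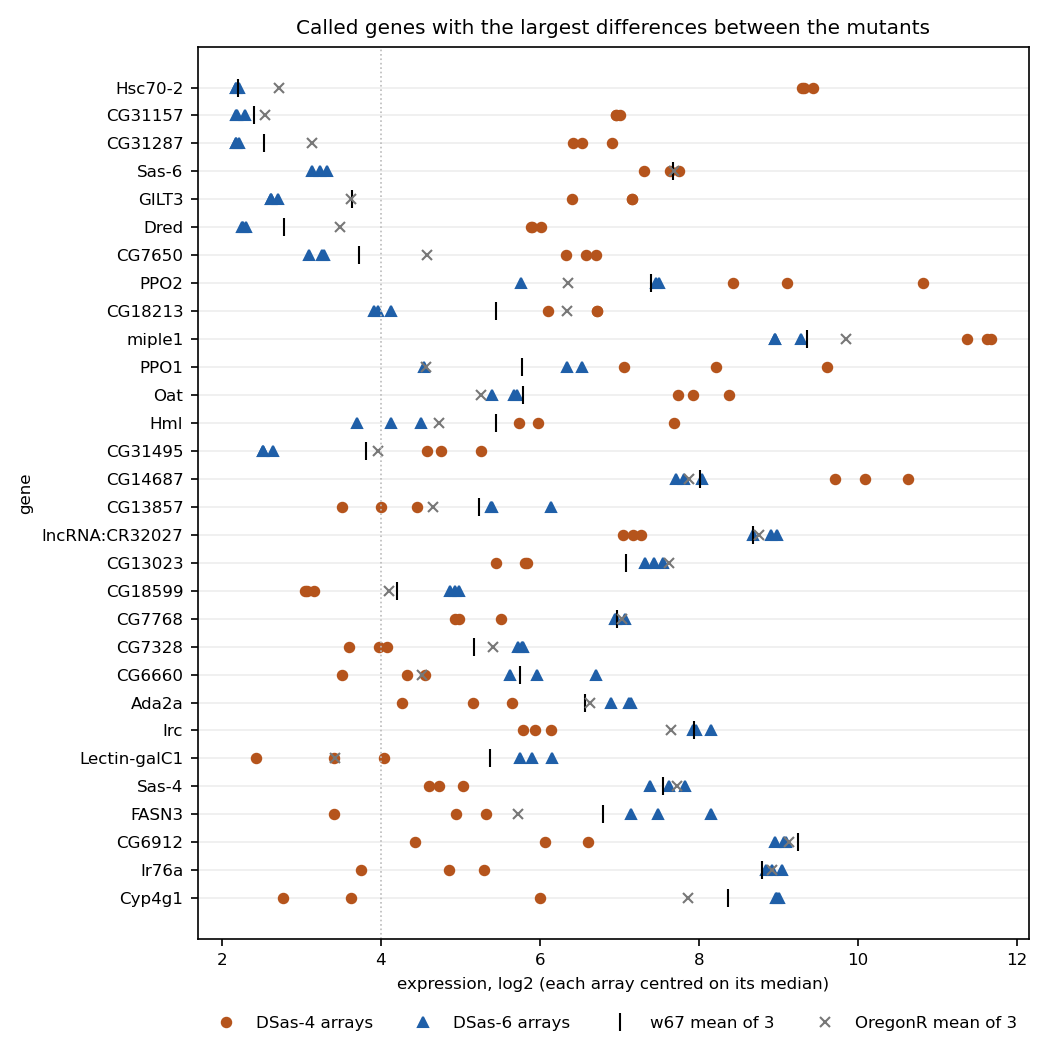
Log2 level of the called genes with the 15 largest differences in each direction, Sas-4 and Sas-6 included, with 1 point per array for the mutants and the mean of 3 arrays for each wild type. The dotted line marks a log2 value of 4; of the mutants, only the DSas-4 arrays lie above 9 for Hsc70-2, and only the DSas-6 arrays lie near 9 for Cyp4g1.

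The genes higher in DSas-6 were led by Cyp4g1, a cytochrome P450 that in flies makes the cuticular hydrocarbons of oenocytes. It read 2.77, 6.01 and 3.62 on the DSas-4 arrays and 9.01, 8.97 and 8.99 on the DSas-6 arrays. The DSas-6 arrays were nearly equal while the DSas-4 arrays were widely spread, with replicate 2 the highest and replicates 1 and 3 under 4. The difference was -4.85 ± 0.62, or 28.9-fold (adjusted p = 1.85e-04) and 19.9-fold with values under 4 set to 4, and the wild-type means, 8.36 in w67 and 7.86 in OregonR, lay near DSas-6. FASN3, a fatty acid synthase that oenocytes also use, read 3.41, 5.33 and 4.95 on the DSas-4 arrays and 7.15, 8.16 and 7.49 on the DSas-6 arrays. It was 8.21-fold lower in DSas-4 without overlap (adjusted p = 0.00403), and its wild-type means were 6.79 in w67 and 5.73 in OregonR. Of 6 oenocyte genes tested these 2 passed, both higher in DSas-6 (33.3%, against 9.36% of all tested genes). Among the defining markers eloF and Fad2 stayed under 4 on all 6 arrays.

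Several other genes showed a similar spread over the DSas-4 arrays. Ir76a, an ionotropic receptor of chemosensory neurons whose probe set may match other transcripts, read 3.75, 5.29 and 4.86 on the DSas-4 arrays and 9.05, 8.84 and 8.93 on the DSas-6 arrays. CG6912 read 4.43, 6.61 and 6.06 on the DSas-4 arrays and 9.10, 8.95 and 9.08 on the DSas-6 arrays. Ada2a, an adaptor of histone acetyltransferase complexes, read 4.27, 5.65 and 5.16 on the DSas-4 arrays and 7.12, 6.90 and 7.15 on the DSas-6 arrays. In all 3 genes DSas-4 replicate 1 was the lowest and replicate 2 the highest, no DSas-4 array reached a DSas-6 array, and both wild types lay nearer to DSas-6. The folds were 19.7-fold for Ir76a, 10.1-fold for CG6912 and 4.09-fold for Ada2a, all higher in DSas-6 (adjusted p = 2.18e-07, adjusted p = 0.00183 and adjusted p = 1.33e-04). Lectin-galC1, a galactose-binding C-type lectin, read 2.43, 3.41 and 4.04 on the DSas-4 arrays and 5.90, 6.16 and 5.76 on the DSas-6 arrays. The groups did not overlap, but 2 DSas-4 arrays lay under 4 and the third was at that level. Its fold was 6.27 as measured and 3.80 with values under 4 set to 4, higher in DSas-6 (adjusted p = 0.00241), with wild-type means of 5.37 in w67 and 3.42 in OregonR. Irc, the immune-regulated catalase, read 5.78, 5.94 and 6.14 on the DSas-4 arrays and 8.15, 7.96 and 7.93 on the DSas-6 arrays and was 4.17-fold higher in DSas-6 (adjusted p = 1.70e-05), with no overlap and replicates close together. The others of the 15 largest were CG6660, CG7328, CG7768, CG18599, CG13023, lncRNA:CR32027 and CG13857, between 3.91-fold for CG6660 and 3.15-fold for CG13857 higher in DSas-6, with CG18599 at least 1.91-fold higher.

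Blood cell genes had the largest median shift of the lists with at least 10 tested members. Haemocytes are the fly's blood cells: plasmatocytes engulf debris and secrete basement membrane, and crystal cells store prophenoloxidase for melanization. Of 25 tested genes of haemocytes and the lymph gland, 14 were higher in DSas-4 (56%, against 12.1% of all tested genes) and 0 were higher in DSas-6, the median difference was 0.28 and 23 of 25 differences lay above 0, against a median of -0.0045 over all tested genes. The list's mean level was 8.86, 8.16 and 8.14 on the DSas-4 arrays and 7.58, 7.52 and 7.68 on the DSas-6 arrays, so DSas-4 replicate 1 stood above the rest. On the w67 arrays it was 8.02, 7.84 and 7.99 and on the OregonR arrays 7.80, 7.50 and 7.60. From whole tissue, fewer cells of a type and less RNA per cell cannot be told apart.

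Hml, a clotting protein used as the plasmatocyte marker, read 7.69, 5.74 and 5.98 on the DSas-4 arrays and 4.13, 3.71 and 4.51 on the DSas-6 arrays. Replicate 1 of DSas-4 was the highest, all DSas-4 arrays lay above all DSas-6 arrays, and the difference was 2.36 ± 0.40 or 5.12-fold (adjusted p = 0.00131). The prophenoloxidases of crystal cells behaved alike in direction. PPO2 read 10.81, 9.12 and 8.43 on the DSas-4 arrays and 7.46, 5.77 and 7.50 on the DSas-6 arrays, a 5.83-fold difference (adjusted p = 0.0116), and PPO1 read 9.61, 8.21 and 7.06 on the DSas-4 arrays and 6.53, 4.55 and 6.34 on the DSas-6 arrays, a 5.62-fold difference (adjusted p = 0.039). He, the hemese surface protein of haemocytes, was 3.52-fold higher in DSas-4 (adjusted p = 0.032). The calls of PPO2, PPO1 and He were lost when only the 6 mutant arrays were fitted. That of PPO1 was also lost without DSas-4 replicate 1 or 2 or any 1 of the 3 DSas-6 replicates. That of He was also lost without DSas-4 replicate 1, DSas-6 replicate 1 or DSas-6 replicate 3. Hml kept its call under every alternative that could be fitted.

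The other 10 called members are named here after their values were seen. They were the phagocytosis receptors eater (1.69) and Sr-CI, the GATA factor srp (1.80), which specifies blood cells, the peroxidasin Pxn (1.18), the surface protein atilla (0.83), and the basement membrane and matrix genes Col4a1 (1.01), vkg (0.77), Tig (0.50), SPARC (0.28) and LanB2 (0.26), each as the difference DSas-4 minus DSas-6. Sr-CI was under 4 on all DSas-6 arrays, so it could enter the test only through DSas-4. It was at least 1.47-fold higher in DSas-4, and its adjusted p of 2.44e-05 (limma) tests the measured values, not this bound. srp, under 4 on 2 of the 3 DSas-6 arrays, differed by 1.59 with values under 4 set to 4. The plasmatocyte receptor gene NimC1 stayed under 4 on all 6 arrays. Without DSas-4 replicate 1 the count fell from 14 to 9, without DSas-6 replicate 1 to 8, without DSas-6 replicate 3 to 9, and with only the 6 mutant arrays to 5, and no member passed in the other direction under any of these. Fat body markers, another tissue that can adhere to dissected discs, averaged 7.18, 6.53 and 6.52 against 6.80, 6.71 and 6.49 and overlapped, and the 3 gut markers stayed under 4 on all 6 arrays.

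**Figure D2:**
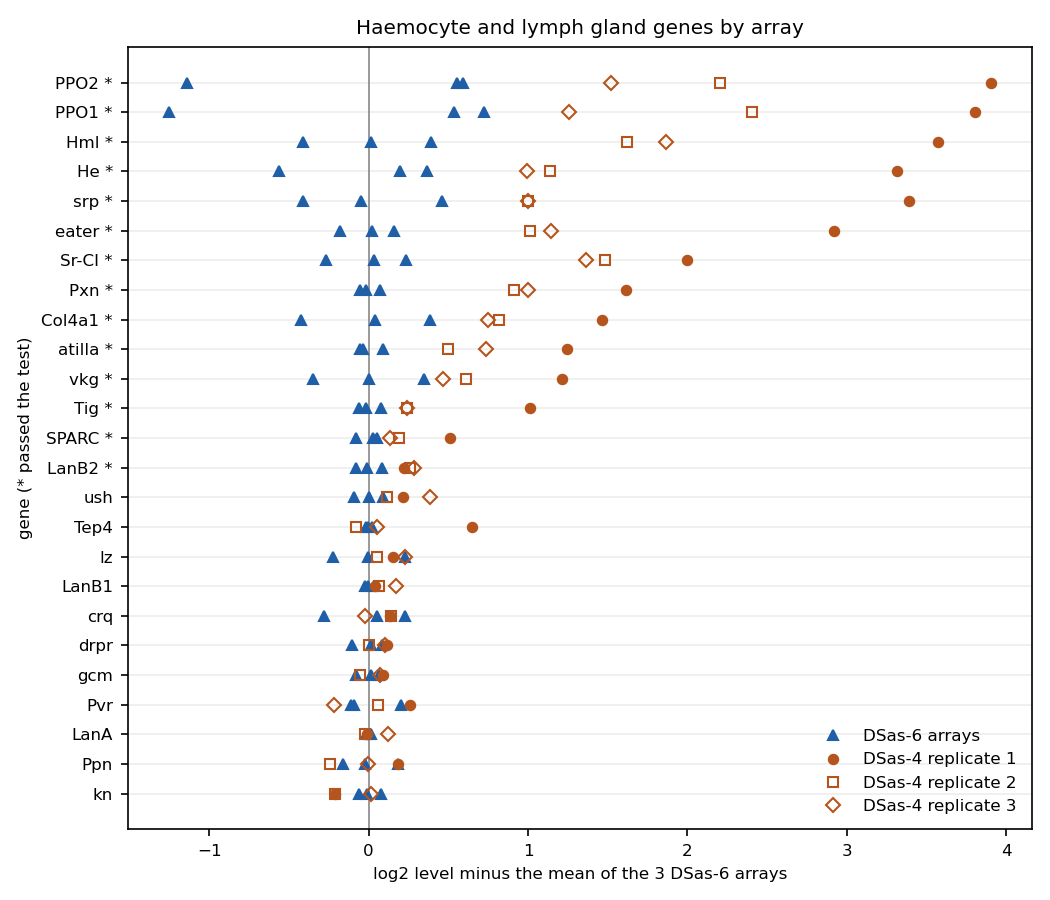
Log2 level of 25 haemocyte and lymph gland genes on each mutant array, minus the mean of the 3 DSas-6 arrays; the asterisk marks the 14 that passed. DSas-4 replicate 1 is the farthest right for most called genes, and replicates 2 and 3 also lie to the right of the DSas-6 arrays for the genes at the top.

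Enzymes of detoxification and of redox defence differed in both directions. Of 32 tested, 6 were higher in DSas-4 and 7 higher in DSas-6, with a median difference near 0, and the called share of 40.6% stood beside 21.4% over all tested genes. Ugt302K1, a UDP-glycosyltransferase, read 9.49, 9.43 and 9.52 on the DSas-4 arrays and 7.51, 7.85 and 7.68 on the DSas-6 arrays. The DSas-4 arrays were all higher, by 3.48-fold (adjusted p = 1.85e-08), and the wild types, at 7.69 in w67 and 7.57 in OregonR, lay with DSas-6. The glutathione S-transferase GstD3 was 1.81-fold higher in DSas-4 (adjusted p = 9.52e-07). Another transferase, GstE13, read 8.51, 9.88 and 9.24 on the DSas-4 arrays and 10.28, 10.23 and 10.31 on the DSas-6 arrays and was 2.09-fold higher in DSas-6 (adjusted p = 0.00578), with DSas-4 replicate 1 the lowest; its call was lost with only the 6 mutant arrays. Irc, given above, was the largest of the 7.

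Genes of intermediary metabolism differed in both directions too. Among 26 genes of amino acid metabolism, 4 were higher in DSas-4 and 3 in DSas-6, a called share of 26.9% against 21.4% of all tested genes. Oat led the former, and LKRSDH, the first enzyme of lysine breakdown, was at least 2.39-fold higher (adjusted p = 2.92e-05) after reading 5.69, 5.04 and 5.03 on the DSas-4 arrays and 3.68, 3.79 and 3.69 on the DSas-6 arrays, without overlap. Of 23 genes of the TCA cycle and glycolysis, 5 were higher in DSas-4 and 3 in DSas-6, a called share of 34.8%. The isocitrate dehydrogenase subunit Idh3b read 8.58, 9.10 and 8.87 on the DSas-4 arrays and 9.74, 9.67 and 9.65 on the DSas-6 arrays and the hexokinase Hex-A, whose probe set may match other transcripts, read 7.49, 7.57 and 7.84 on the DSas-4 arrays and 8.49, 8.45 and 8.37 on the DSas-6 arrays. Both were lower on every DSas-4 array, by 1.79-fold (adjusted p = 0.00817) and 1.74-fold (adjusted p = 7.26e-05), while the aconitase mAcon1 was 1.32-fold higher in DSas-4 (adjusted p = 0.0017). Lipid genes gave 6 higher in DSas-4 and 2 higher in DSas-6 of 23, a called share of 34.8%. The acetyl-CoA carboxylase ACC was 1.43-fold and the lipid droplet protein Lsd-1 1.67-fold higher in DSas-4 (adjusted p = 2.19e-04 and adjusted p = 0.00909), both on probe sets that may be shared, and Cyp4g1 was the largest in the other direction.

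Genes of the ribosome and its assembly had nearly all of their calls in the DSas-6 direction in the centred values, by small amounts. Mitochondrial ribosomal proteins, which make up the ribosome inside mitochondria, had 14 of 71 members higher in DSas-6 (19.7%, against 9.36% of all tested genes) and 0 higher in DSas-4, with a median difference of -0.10 and 8 of 71 differences above 0. The largest was mRpS18A, which read 9.82, 9.92 and 9.54 on the DSas-4 arrays and 10.36, 10.36 and 10.35 on the DSas-6 arrays. All DSas-4 arrays lay below all DSas-6 arrays, with a difference of -0.59 ± 0.08 (adjusted p = 2.27e-04), and mRpL20 differed by -0.40 ± 0.09 (adjusted p = 0.00995), a call lost with only the 6 mutant arrays. The list's mean was 9.48, 9.53 and 9.33 in DSas-4 and 9.58, 9.56 and 9.59 in DSas-6, with DSas-4 replicate 3 the lowest. This count was 5 without centring, 8 with the median of all probe sets, 3 with only the 6 mutant arrays and 4 without DSas-4 replicate 3. It was 24 without DSas-4 replicate 2, and 6, 8 and 6 without DSas-6 replicates 1, 2 and 3.

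Of 29 cytosolic ribosomal proteins 5 were higher in DSas-6 and 0 in DSas-4, and all 29 differences were below 0, with a median of -0.11. The 5 calls are to be read beside the share of 9.36% over all tested genes. The median was -0.0026 after quantile and -0.016 after cyclic loess normalization and -0.042 in the deposited values, so the shift depended on the scaling. None of the 29 passed in the deposited values, after quantile or cyclic loess normalization, or with only the 6 mutant arrays. Ribosome biogenesis and RNA polymerase I genes had 8 of 30 higher in DSas-6 (26.7%, against 9.36% of all tested genes) and 1, Polr1H, higher in DSas-4 by 0.50 ± 0.07 (adjusted p = 2.39e-04). Mybbp1A was the largest in the other direction, at -0.29 ± 0.09 (adjusted p = 0.0298). Its call was lost in the deposited values, with the median of all probe sets and with only the 6 mutant arrays. It was also lost without replicate 1 or 2 of either mutant. The count of 8 was 1 in the deposited values, 2 with the median of all probe sets, 1 with only the 6 mutant arrays and 3 to 6 with any 1 mutant array left out. Of 53 genes of oxidative phosphorylation 3 were higher in DSas-6 and 0 in DSas-4, under the share over all tested genes. Among 26 proteasome genes 1 was higher in DSas-6 (3.85%, against 9.36% of all tested genes).

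RNA processing and nuclear transport held a few larger differences. Of 36 spliceosome and mRNA processing genes, 7 were higher in DSas-6 (19.4%, against 9.36% of all tested genes) and 1 in DSas-4. Hrb87F, an hnRNP A protein that binds nuclear RNA, read 11.46, 11.85 and 11.95 on the DSas-4 arrays and 13.13, 13.17 and 13.13 on the DSas-6 arrays. The DSas-6 arrays were close together and the DSas-4 arrays were all lower, by 2.62-fold (adjusted p = 8.12e-07), while the wild types lay with DSas-6, at 13.23 in w67 and 13.27 in OregonR. The U2 snRNP factor Sf3a1 and the polypyrimidine tract binding protein heph were 1.34-fold and 1.31-fold higher in DSas-6 (adjusted p = 2.40e-04 and adjusted p = 0.0111). Nuclear pore and transport genes had 5 of 27 higher in DSas-4 and 1 higher in DSas-6, a called share of 22.2%, close to that of all tested genes. The latter was Tnpo, transportin, which imports hnRNP proteins into the nucleus. It read 8.93, 8.34 and 9.09 on the DSas-4 arrays and 10.17, 10.10 and 10.51 on the DSas-6 arrays, a 2.78-fold difference without overlap (adjusted p = 6.25e-04), and the wild types, at 8.66 in w67 and 8.78 in OregonR, lay near DSas-4. The probe sets of Hrb87F, heph and Tnpo may match other transcripts.

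Chromatin regulators had 5 of 45 higher in each mutant, a called share of 22.2%, close to the 21.4% of all tested genes. The 3 largest differences were all higher in DSas-6, and beside Ada2a these were Tet, the fly TET family dioxygenase, at 2.24-fold (adjusted p = 0.00367), and nej, the CBP acetyltransferase, at 1.79-fold (adjusted p = 1.03e-04). nej read 8.13, 8.12 and 8.34 on the DSas-4 arrays and 8.99, 8.99 and 9.12 on the DSas-6 arrays, with no overlap and wild-type means of 8.35 in w67 and 8.20 in OregonR. Mi-2, the NuRD remodeller, was higher in DSas-4 by 0.46 ± 0.07 (adjusted p = 4.28e-04). None of 3 tested histone genes passed.

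Among 11 genes of centriole assembly 4 passed (36.4%, against 21.4% of all tested genes), with Sas-4 and Sas-6 themselves among them. Cp110, which caps centriole ends, differed by 0.16 ± 0.04 (adjusted p = 0.0108), on a probe set that may be shared. The remaining gene, ana3, needed for centriole and centrosome integrity, differed by -0.35 ± 0.09 (adjusted p = 0.0192). Cp110 and ana3 lost their calls with only the 6 mutant arrays. Cp110 also lost its call after quantile or cyclic loess normalization and under moderation with trend and robust. ana3 also lost its call with the median of all probe sets and without DSas-4 replicate 1 or 3 or DSas-6 replicate 3. Of 10 genes of the pericentriolar material and gamma-tubulin, Plp passed, a called share of 10% against 21.4% of all tested genes. Plp, the pericentrin-like protein that tethers the material to centrioles, read 9.57, 9.55 and 9.73 on the DSas-4 arrays and 9.24, 9.28 and 9.19 on the DSas-6 arrays, higher on all DSas-4 arrays by 0.38 ± 0.07 (adjusted p = 0.00318). Its call was lost when the probe sets of each gene were averaged.

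Spindle genes gave 4 higher in DSas-4 and 3 higher in DSas-6 of 26. The kinesin Klp10A, on a probe set that may be shared, differed by 0.52 ± 0.14 (adjusted p = 0.0204), and the kinase aurB of the chromosomal passenger complex by -0.32 ± 0.08 (adjusted p = 0.0148). Of 28 kinetochore, checkpoint and APC/C genes, 2 were higher in DSas-4, Nnf1b by 0.57 ± 0.17 and rod by 0.32 ± 0.10 (adjusted p = 0.0288 and adjusted p = 0.0354). Each of these 4 genes lost its call under at least 1 alternative. Called shares were 26.9% of spindle genes and 7.14% of kinetochore, checkpoint and APC/C genes, against 21.4% of all tested genes. Cap-G, a condensin subunit, read 8.69, 8.84 and 8.75 on the DSas-4 arrays and 8.35, 8.32 and 8.36 on the DSas-6 arrays. It was higher on every DSas-4 array by 0.41 ± 0.07 (adjusted p = 0.00129) and kept its call throughout. Among 18 cyclin, Cdk and E2F genes 4 were higher in DSas-4 and 1 in DSas-6, led by the retinoblastoma homologue Rbf at 0.45 ± 0.07 (adjusted p = 0.00121) and the mitotic cyclin CycB3 at 0.39 ± 0.09 (adjusted p = 0.0108), the latter lost with only the 6 mutant arrays. The called share of this list was 27.8%.

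Psf1, a subunit of the GINS complex of the replicative helicase, read 6.70, 6.93 and 6.73 on the DSas-4 arrays and 7.51, 7.50 and 7.46 on the DSas-6 arrays. All DSas-4 arrays were lower, by 1.62-fold (adjusted p = 5.46e-05), and the wild types lay at 7.28 in w67 and 7.39 in OregonR. RPA1, the large subunit of the single-strand binding protein, was higher in DSas-4 by 0.41 ± 0.07 (adjusted p = 0.0011). In all, 4 of 34 replication genes were higher in DSas-4 and 2 in DSas-6. Of 24 genes of the DNA damage response the counts were 4 and 3, with PolQ, the polymerase of end joining, 1.58-fold higher in DSas-4 (adjusted p = 1.85e-04) and tefu, the fly ATM kinase, higher by 0.37 ± 0.09 (adjusted p = 0.0111), a call lost without DSas-4 replicate 3. Called shares were 17.6% of replication genes and 29.2% of damage response genes, against 21.4% of all tested genes.

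Of 17 apoptosis genes, 4 were higher in DSas-4 (23.5%, against 12.1% of all tested genes) and 0 in DSas-6, and the list's median difference was 0.04. The count was 2 after quantile normalization or with only the 6 mutant arrays, and 1 to 3 with any 1 mutant array left out, with 1 without DSas-4 replicate 1 or DSas-6 replicate 1. Bruce, a large ubiquitin-conjugating inhibitor of cell death, read 8.29, 8.62 and 8.63 on the DSas-4 arrays and 7.82, 7.54 and 7.56 on the DSas-6 arrays. The DSas-4 arrays were higher by 1.83-fold (adjusted p = 0.00405) and the wild types were near them, at 8.51 in w67 and 8.15 in OregonR. The caspase Strica was 1.42-fold higher (adjusted p = 0.0223), the cell death activator grim differed by 0.26 ± 0.07 (adjusted p = 0.0263) and the caspase Dredd by 0.25 ± 0.08 (adjusted p = 0.0317); these 3 lost their calls under at least 1 alternative, and Dredd lies on a probe set that may be shared. Of 13 heat shock genes and chaperones 3 passed (23.1%, close to the 21.4% of all tested genes). Beside Hsc70-2, these were Hsp26 and Hsp110, both higher in DSas-6 by less than 1 unit, the latter on a probe set that may be shared. Both calls were lost with only the 6 mutant arrays and without DSas-4 replicate 2 or 3 or DSas-6 replicate 1 or 2. Hsp26 read 12.09, 11.32 and 11.50 on the DSas-4 arrays and 12.12, 12.53 and 12.03 on the DSas-6 arrays, with overlap. Of 39 autophagy and lysosome genes 6 were higher in DSas-4 and 2 in DSas-6, with GILT3 the largest and the hexosaminidase Hexo2 at 1.43-fold (adjusted p = 0.0132), a call lost with only the 6 mutant arrays or without DSas-6 replicate 2. The called share of this list was 20.5%, against 21.4% of all tested genes.

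Brain and disc markers were present in both mutants. Of 7 brain markers nSyb and repo passed, both higher in DSas-6, and of 9 disc markers ey, so and eya passed, all higher in DSas-4. Over all tested genes 9.36% were higher in DSas-6 and 12.1% in DSas-4. The mean of 7 brain markers was 9.61, 9.51 and 9.70 on the DSas-4 arrays and 10.1, 9.93 and 9.85 on the DSas-6 arrays, without overlap, and that of 9 disc markers was 9.49, 9.56 and 9.57 against 9.40, 9.52 and 9.38, with overlap. The part of these marker levels in the results for neural genes was not tested. The glial transcription factor repo, 1 of the brain markers, read 9.60, 9.61 and 9.58 on the DSas-4 arrays and 10.26, 10.19 and 10.28 on the DSas-6 arrays. It was higher on every DSas-6 array, with a difference DSas-4 minus DSas-6 of -0.65 ± 0.07 (adjusted p = 3.36e-05). Of 16 glial genes repo alone passed (6.25%, against 21.4% of all tested genes), while 12 of the 16 differences lay above 0.

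Neuronal and presynaptic genes gave 4 of 32 higher in DSas-4 and 5 higher in DSas-6, with a median difference of -0.08. Their called share was 28.1%, against 21.4% of all tested genes. Shal, a voltage-gated potassium channel, read 3.33, 3.10 and 3.51 on the DSas-4 arrays and 4.64, 4.77 and 5.07 on the DSas-6 arrays and was at least 1.77-fold higher in DSas-6 (adjusted p = 0.00685). The synaptic vesicle SNARE nSyb, on a probe set that may be shared, was 1.55-fold higher in DSas-6 (adjusted p = 0.0128) and lost its call without DSas-6 replicate 1. The receptor subunits nAChRalpha5 and GluRIA were 1.41-fold and 1.34-fold higher in DSas-4 (adjusted p = 0.0151 and adjusted p = 0.00969), the former lost without DSas-4 replicate 3 or DSas-6 replicate 3.

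Axon guidance and adhesion genes had 7 of 34 higher in DSas-4 and 6 higher in DSas-6, a called share of 38.2% against 21.4% of all tested genes. The cell adhesion receptor Dscam3 read 6.20, 5.94 and 5.95 on the DSas-4 arrays and 4.86, 4.57 and 4.80 on the DSas-6 arrays. All DSas-4 arrays were higher, by 2.44-fold (adjusted p = 0.00328), and its relative Dscam4 was 1.66-fold higher (adjusted p = 4.82e-05). In the other direction, DIP-alpha, an immunoglobulin protein of synaptic matching, read 3.61, 4.23 and 3.56 on the DSas-4 arrays and 5.21, 5.26 and 5.27 on the DSas-6 arrays. It was 2.73-fold higher in DSas-6 (adjusted p = 3.94e-04), and 2.25-fold with the 2 DSas-4 values under 4 set to 4. The guidance cue Sema1a was 2.1-fold higher in DSas-6 (adjusted p = 0.00718) and lost its call with only the 6 mutant arrays. Among 32 neuroblast and temporal factors 4 were higher in DSas-4, with ham and erm at 0.58 ± 0.13 and 0.46 ± 0.06 (adjusted p = 0.00746 and adjusted p = 1.85e-04), and 3 were higher in DSas-6, with sna at -0.42 ± 0.11 (adjusted p = 0.0182) and brat at -0.52 ± 0.17 (adjusted p = 0.049). The calls of sna and brat were each lost under at least 1 alternative, and the probe set of brat may be shared. The called share of the neuroblast and temporal factors was 21.9%, close to the 21.4% of all tested genes.

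Of 26 eye disc genes, ey, eya and so, transcription factors of the retinal network, were higher in DSas-4 by 0.30 ± 0.07, 0.29 ± 0.09 and 0.24 ± 0.06 (adjusted p = 0.00896, adjusted p = 0.03 and adjusted p = 0.0111), and 2 were higher in DSas-6. These 3 were 11.5% of the list, against 12.1% of all tested genes. The list's called share was 19.2%, against 21.4%, its median difference was -0.03 and 13 of 26 differences lay above 0. The calls of eya and so were lost with only the 6 mutant arrays, and that of eya also without DSas-4 replicate 2 or DSas-6 replicate 1 or 3. The probe sets of ey and eya may be shared. Of 36 genes of wing, leg and notum patterning, 3 were higher in DSas-4 and 6 in DSas-6, a called share of 25% against 21.4% of all tested genes. The giant apical matrix protein dpy read 6.51, 5.44 and 6.26 on the DSas-4 arrays and 7.70, 7.33 and 7.23 on the DSas-6 arrays. DSas-6 was higher without overlap, by 2.54-fold (adjusted p = 0.00129), and the wild types, at 5.93 in w67 and 6.12 in OregonR, lay with DSas-4. Of 16 Notch targets 4 passed, all of the E(spl) complex and all higher in DSas-6 (25%, against 9.36% of all tested genes). In the deposited values 2 were higher in DSas-6 and 1 in DSas-4, with only the 6 mutant arrays 1 was higher in DSas-6, and with any 1 mutant array left out 1 to 4 were. The largest was E(spl)m3-HLH, a repressor of the neural fate, at -0.31 ± 0.05 (adjusted p = 7.70e-04), which kept its call throughout. E(spl)mbeta-HLH, E(spl)m2-BFM and E(spl)m7-HLH lost theirs with only the 6 mutant arrays and also without DSas-4 replicate 2 or 3. All 4 lie on arm 3R, which carries both mutated genes and on which 27.4% of tested genes passed, the highest share of any arm. The part of this shared location in the count was not tested.

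Of 9 genes for synthesis of the moulting hormone ecdysone, which mark the ring gland attached to the brain, nvd and sad passed, both higher in DSas-6 (22.2%, against 9.36% of all tested genes). The list's median difference was -0.04 and 4 of 9 differences lay above 0. The ring gland markers dib and Akh did not pass, with differences of -0.04 and 0.04. nvd read 7.14, 7.97 and 8.12 on the DSas-4 arrays and 8.54, 8.44 and 8.77 on the DSas-6 arrays and sad read 8.81, 9.38 and 9.57 on the DSas-4 arrays and 9.96, 9.73 and 9.89 on the DSas-6 arrays. DSas-4 replicate 1 was the lowest in both, the groups did not overlap, and the differences were -0.84 ± 0.22 and -0.60 ± 0.15 (adjusted p = 0.0186 and adjusted p = 0.0158), both lost with only the 6 mutant arrays. The call of nvd was also lost without DSas-6 replicate 3, and that of sad without DSas-6 replicate 1. Of 24 ecdysone response genes 1 was higher in DSas-4 and 2 in DSas-6, a called share of 12.5% against 21.4% of all tested genes. The nuclear receptor Eip78C, on a probe set that may be shared, was 2.01-fold higher in DSas-6 (adjusted p = 0.00305). Eip93F was 1.53-fold higher in DSas-6 (adjusted p = 0.0052), and its other probe set had means of 3.98 in DSas-4 and 3.19 in DSas-6, both under 4, which give no order.

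Of 15 genes of sex determination and dosage compensation, 4 were higher in DSas-6 (26.7%, against 9.36% of all tested genes) and 0 in DSas-4. In the deposited values 2 were higher in DSas-6 and 1 in DSas-4, and with any 1 mutant array left out 2 to 3 were higher in DSas-6. msl-3, a subunit of the male dosage compensation complex, read 7.90, 8.25 and 8.15 on the DSas-4 arrays and 8.64, 8.86 and 8.71 on the DSas-6 arrays, and Sxl, the switch gene of female development, on a probe set that may be shared, read 10.50, 10.46 and 10.59 on the DSas-4 arrays and 11.18, 11.22 and 10.99 on the DSas-6 arrays. Neither overlapped, and the differences were -0.64 ± 0.10 and -0.61 ± 0.10 (adjusted p = 8.01e-04 and adjusted p = 0.00114). The other probe sets of Sxl differed less, by -0.04 (8.55 against 8.59) and -0.27 (10.53 against 10.81). The levels in the wild types were 8.55 in w67 and 8.47 in OregonR for msl-3, and 10.51 in w67 and 10.46 in OregonR for Sxl. The calls of her and ix, the others, were lost under at least 1 alternative. Only 7 of the 33 genes of cilia and intraflagellar transport on the array were tested. Of these 7, 3 were higher in DSas-4 (42.9%, against 12.1% of all tested genes). The count was 2 after quantile or cyclic loess normalization. Rfx, the transcription factor of ciliary genes, was at least 1.4-fold higher (adjusted p = 0.00367). It was under 4 on all DSas-6 arrays, so it could enter the test only through DSas-4. The transport genes Oseg4 and Oseg1 differed by 0.49 ± 0.06 and 0.40 ± 0.13 (adjusted p = 1.16e-04 and adjusted p = 0.0425). The call of Oseg1 was lost after quantile normalization.

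**Figure D3:**
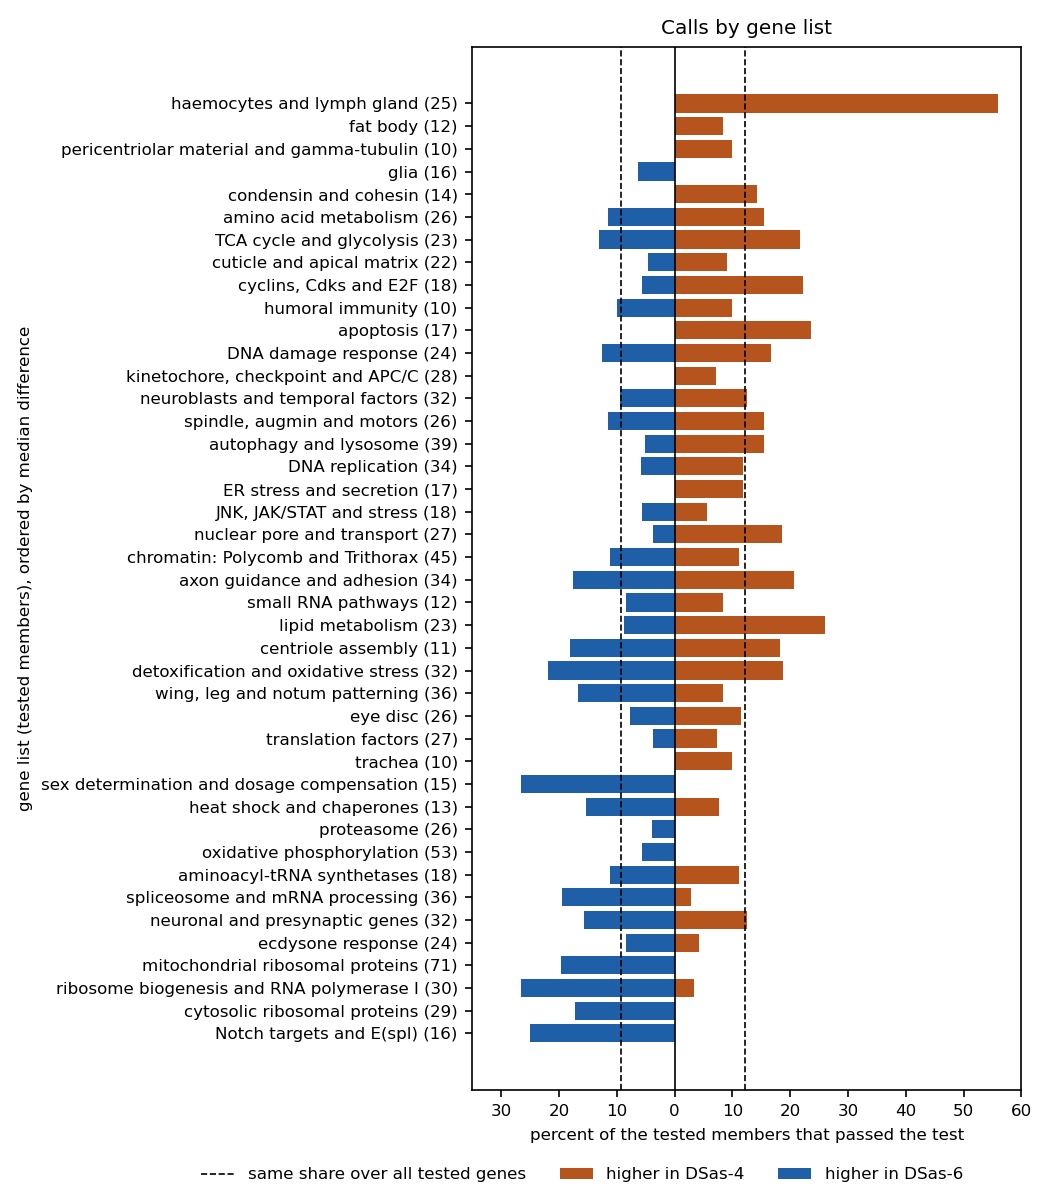
Percent of the tested members of each gene list with at least 10 tested members that passed the test, to the right when higher in DSas-4 and to the left when higher in DSas-6, with dashed lines at 12.1% and 9.36%, the shares over all tested genes. Haemocyte genes reach 56% on the DSas-4 side, and lists of ribosomal genes lie at the bottom with calls almost entirely on the DSas-6 side in the centred values.

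Both mutated genes lie on the right arm of chromosome 3, and that chromosome held more calls than the others. On chromosome 3, 797 of 3073 tested genes passed (25.9%), against 679 of 3827 elsewhere (17.7%). Arm 3R had the highest share, 27.4%, followed by 3L with 24.1%, 2R with 19.5%, chromosome 4 with 17.9%, X with 17.6% and 2L with 15.9%. Among called differences of 1 unit or more, 76 genes lay on chromosome 3 (2.47% of its tested genes) and 25 elsewhere (0.653%). With values under 4 set to 4, the counts were 67 (2.18%) and 20 (0.523%). Of the 30 largest called differences, 15 in each direction, 28 were genes other than Sas-4 and Sas-6, and 24 of these 28 were on chromosome 3. When the 30 were ranked with values under 4 set to 4, 22 of the 28 were. The ratio of the called share on chromosome 3 to that elsewhere was 1.46, and it stayed between 1.32 and 1.78 under the alternatives.

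The share of calls next to the mutated genes was close to that of their arm. Of the 50 tested genes nearest to Sas-4 on each side, 25 of 100 passed, and of those nearest to Sas-6 also 25 of 100, against 27.4% on the whole arm. At ranks 51 to 100 the shares were 24% and 25%, and at ranks 101 to 200 they were 21.9% (42 of 192) around Sas-4 and 33% (33 of 100) around Sas-6. In stretches of 50 tested genes along the arms, the highest share was 46% on 3R and 42% on 3L, whereas the stretch that holds Sas-4 had 22% and that with Sas-6 28%. Differences of chromosome 3 between the stocks cannot be told apart from the mutations.

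**Figure D4:**
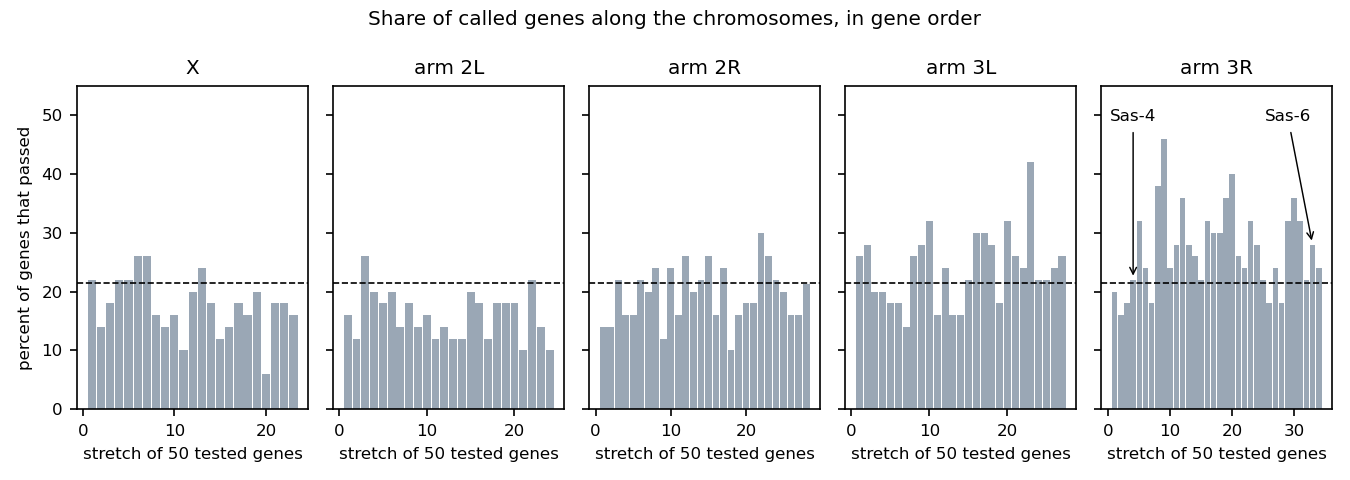
Percent of genes that passed in consecutive stretches of 50 tested genes, in gene order along each arm, with a dashed line at 21.4%, the share over all tested genes. The highest stretches are on 3R and 3L, and the stretches with Sas-4 and Sas-6, marked by arrows, are near the line.

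The direction of the small differences moved with the level of a gene and with its length. Of the 1729 genes with the lowest mean level, 357 were higher in DSas-4 and 172 in DSas-6, and of the 1729 with the highest level 108 and 151, while the median difference went from 0.06 to -0.03. By the length of the gene in RefSeq, available for 6901 of the tested genes, the 1726 shortest (median 1179 bp) had 100 higher in DSas-4 and 233 higher in DSas-6. The 1725 longest (median 16654 bp) had 310 and 137. The median difference went from -0.06 in the shortest to 0.05 in the longest, and after quantile normalization from -0.06 to 0.04. Mitochondrial ribosomal protein genes had a median length of 910 bp and cytosolic ones of 1119 bp, haemocyte genes of 9200 bp and axon guidance genes of 35132 bp, against 3057 bp over all. The length is that of the gene with introns, not of the transcript, and its part in the list results was not tested.

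**Figure D5:**
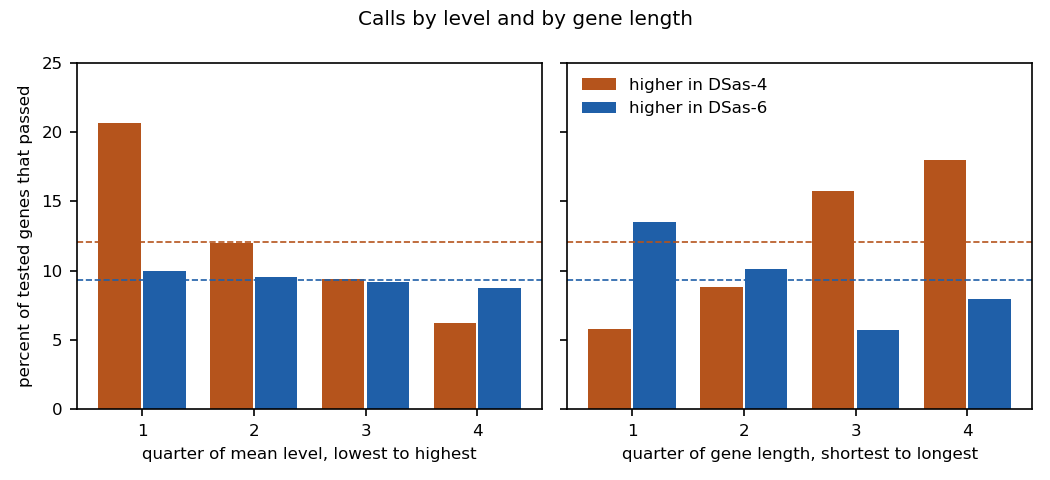
Percent of tested genes that passed in 4 groups of equal size by mean log2 level and by gene length, higher in DSas-4 or higher in DSas-6, with dashed lines at 12.1% and 9.36%, the shares over all tested genes. Calls higher in DSas-4 are most frequent among genes of low level and among long genes.

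The wild types did not place one mutant apart for all calls. For 586 of the 1482 called genes both wild-type means lay nearer to DSas-4, for 411 both lay nearer to DSas-6, and for 485 they were split, 379 of these with w67 nearer to DSas-4. Among the 103 called genes that differed by 1 unit or more the counts were 24, 56 and 23. Both wild types lay nearer to DSas-6 for 29 of the 60 genes higher in DSas-4 by 1 unit or more and for 27 of the 43 genes higher in DSas-6 by as much. The w67 and DSas-4 arrays share their lowest deposited value, 2.174, against 2.180 in OregonR and 2.178 in DSas-6. A shared normalization of w67 and DSas-4 therefore cannot be told apart from nearness of the strains.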

How the data were processed

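RNA of 15 samples (5 groups of 3) was hybridised to Affymetrix Drosophila Genome 2.0 arrays after 500 ng of total RNA had been labelled with a 3′ kit. The deposited log2 values were made by the authors with GCRMA and limma, per the submitters' processing notes; versions are not given in the sources used here. Of 18952 probe sets, 13647 had 1 gene symbol, 402 several and 4720 none, and 183 were controls. Symbols and chromosome arms came from the platform annotation and the RefSeq table of Release 6, in which 13544 probe sets matched. Precision is limited by there being 3 arrays per group.

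Here a gene was tested when a probe set of its own reached 4 on at least 3 of the 6 mutant arrays, with the probe set of highest mean per gene. Each array was centred on its median over these genes. limma 3.58.1 in R 4.3.3 (lmFit and eBayes) fitted 1 mean per group to all 15 arrays, so that all groups share the estimate of the spread, and the contrast DSas-4 minus DSas-6 was tested two-sided with Benjamini-Hochberg adjustment over all tested genes. P-values measure the spread between these pooled samples. For genes under 4 throughout one mutant, folds are lower bounds computed against 4. These genes could enter the test only through the other mutant, and their adjusted p tests the measured values, not the bound. Values under 4 set to 4 were a further check, without a test, chosen after seeing the data. The procedure was tested on simulated data. The genes named are Sas-4 and Sas-6, the 15 largest called differences in each direction and up to 4 called members of each of 54 gene lists; others are marked as chosen after their values were seen. Members, lists and this rule were chosen with earlier results of these data known. Lists are described by counts and medians, without a test. Alternatives were other scalings, filters, probe set rules, a fit of the 6 mutant arrays alone, moderation with trend and robust, the replicate number as a block, and leaving out each mutant array. Same-numbered arrays of the mutants did not deviate together (r from -0.29 to -0.02), so the numbers were not taken as pairs.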

Additional observations from a re-analysis of the deposited data

How the results depend on the processing

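The count of 1482 called genes became 853 with only the 6 mutant arrays in the fit, 811 of them shared with the 1482. It was 899 to 1374 when 1 mutant array was left out, and 6372 of 11982 without a filter on dim probe sets. Without that filter, genes at the lowest value in both groups enter with the difference that centring leaves between the arrays. The gut marker alphaTry, at that value, read 2.12, 2.13 and 2.11 on the centred DSas-4 arrays and 2.18, 2.22 and 2.17 on the DSas-6 arrays. With the replicate number as a block 1349 genes were called, and 1290 of the 1482 were called in both. The block moved no count of called genes or of the 2 lists below by over 1.5 times. The share of called genes higher in DSas-4, 56.3%, was 80.1% without centring, 74.2% with the median over all probe sets, 52.6% after quantile and 50.2% after cyclic loess normalization. The following checks of lists and chromosomes were chosen after seeing the data. The 14 haemocyte genes higher in DSas-4 became 5 with the 6 mutant arrays, 8 of the 19 left at a filter of 6, and 8 to 14 with 1 array left out. The 14 mitochondrial ribosomal protein genes higher in DSas-6 became 5 without centring, 8 with the median over all probe sets, 3 with the 6 mutant arrays, 27 without a filter and 4 to 24 with 1 array left out. The cause was not tested. The ratio of called shares on chromosome 3 and elsewhere stayed above 1 under all alternatives run. Of 168 named genes 79 were called in the same direction under all tested alternatives that gave a value, 88 lost the call under at least 1, and 1, Eip93F, gave 0.089 when it was averaged with a probe set whose means are under 4 in both mutants, a reversed sign that rests on that dim probe set; 39 lie on probe sets that may be shared. Genes under 4 have no order between them.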

Other observations

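Probe sets that carry several gene symbols or none were tested apart, adjusted over these alone. Of 1021 tested, 251 passed, 126 higher in DSas-4 and 125 higher in DSas-6. They are not named here.

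MtnA, a copper-binding metallothionein that is in no gene list and was chosen after its values were seen, read 12.91, 12.97 and 12.91 on the DSas-4 arrays and 11.51, 11.45 and 11.50 on the DSas-6 arrays. The groups did not overlap, and the difference was 1.45 ± 0.08 (SE, n = 3 per group; limma, adjusted p = 6.79e-08). krimp, a Tudor domain protein of the piRNA pathway, read 5.58, 6.41 and 5.47 on the DSas-4 arrays and 4.88, 4.64 and 4.35 on the DSas-6 arrays, a difference of 1.20 ± 0.31 (limma, adjusted p = 0.017), and its call was lost without DSas-4 replicate 2 or DSas-6 replicate 3.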
